A study of Saccharomyces cerevisiae with 48 samples.

Results

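The messenger RNA levels of 10 yeast lipid synthesis genes (ACC1, FAS1, FAS2, OLE1, INO1, ITR1, CHO1, CHO2, OPI3 and OPI1) were followed through 3 time courses of Saccharomyces cerevisiae on Affymetrix expression arrays. The members were named by their function in fatty acid and phospholipid synthesis, with earlier results of these data known, and each was read through the probe set annotated to it. They are 10 of the 5449 yeast genes measured, and each had 1 probe set. The cells without Cdk activity had the genotype BF264-15DU mat a with cdc28-4, a temperature-sensitive allele of the Cdk1 gene. They were sampled every 20 min in 2 replicate courses. Course 1 ended at 290 min with 15 arrays, course 2 at 350 min with 18 arrays, and both began at 10 min. The cells with Cdk activity, labelled wild type, had the genotype BF264-15DU mat a with bar1 and were sampled every 15 min in 1 course of 15 arrays from 15 to 225 min. In every course small daughter cells, selected by size through elutriation of a culture grown at 25 °C in the rich medium YEPD, were put into YEPD at 37 °C at time 0. All cells of both strains therefore went through the separation and the temperature shift, and the genotypes given differ at BAR1 as well as at CDC28.

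Yeast makes fatty acids from acetyl-CoA. Acetyl-CoA carboxylase, encoded by ACC1, makes malonyl-CoA, and the fatty acid synthase complex of the FAS1 and FAS2 products builds saturated chains, into which the desaturase of the endoplasmic reticulum encoded by OLE1 puts a double bond. The chains pass through phosphatidic acid into phospholipids: CHO1, CHO2 and OPI3 encode enzymes on the route to phosphatidylserine and phosphatidylcholine, while INO1 and ITR1 supply inositol by synthesis and by uptake. Many of these genes share an upstream element bound by the activators Ino2 and Ino4, and Opi1 represses them when inositol is plentiful and phosphatidic acid is low.

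Values are log2 intensities throughout, so a difference of 1 stands for a doubling. Absolute levels of different genes were not compared, because probe sets differ in brightness. For FAS1 and FAS2 the difference within an array is given, and only its change over time is read. Where marker genes are summed, the brighter probe sets weigh most. Between 90.8% and 96.6% of the genes were above background on each array, where background is the level that 95% of the fission yeast probe sets on that array do not exceed, on average 8.40 on the log2 scale. No member was under background on any array. INO1 came closest, 0.14 above background at 250 min in course 2 of cdc28-4 and 0.27 above it at 225 min in wild type, so its late differences rest on values near background. The a-cell genes MFA1, MFA2, STE2 and STE6 were above background on all arrays, and BAR1, whose mutant form the wild-type genotype carries, was above background on all 33 cdc28-4 arrays and on 0 of the 15 wild-type arrays. Genes of the opposite mating type also gave signal: MF(ALPHA)2 and SAG1 were above background on 33, STE3 on 31 and MF(ALPHA)1 on 24 of the 33 cdc28-4 arrays, against 0, 15, 3 and 0 of the 15 wild-type arrays. The point mutation of CDC28 cannot be checked from its mRNA, which was above background on all arrays. Per the labels, samples 1 to 33 were labelled with a One Cycle kit and samples 34 to 48 with a MessageAmp Premier kit, and in listing order the kit changes exactly where the strain does. A level difference between the strains therefore cannot be told apart from the kits, whereas a constant offset of the kits cancels in a difference of changes over time. The ratio of the 3′ to the 5′ ACT1 probe sets, a measure of RNA integrity and labelling, ranged from 0.18 to 0.43 in cdc28-4 and from 0.39 to 0.64 in wild type on the log2 scale.

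The course 2 array at 170 min stood apart from the arrays before and after it. Its deviation from the mean of those neighbours had an SD over all genes of 0.32, against 0.044 for the course 1 array of the same time. CHO1 lay 0.81 below its neighbours there, OPI1 0.43 above, FAS2 0.40 above and OPI3 0.28 below. Results that turn on this array are given with and without it. Over the 15 shared times the courses correlated at r = 0.98 for FAS2, 0.97 for INO1, CHO2 and FAS1, 0.96 for OLE1, 0.95 for ACC1, 0.91 for OPI3, 0.88 for ITR1, 0.83 for OPI1 and 0.62 for CHO1, where the median of all genes was 0.87. Without the 170 min arrays the values for CHO1 and OPI1 were 0.94 and 0.96, where the median of all genes was 0.93. From 50 to 290 min, with 170 min kept, r was 0.06 for CHO1, 0.63 for OPI1 and 0.65 for OPI3. The other members then lay between 0.90 (ITR1) and 0.97 (FAS2), and the median of all genes was 0.69. These correlations are descriptions, since the courses share the response to the shift.

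All 10 members changed over the 15 shared times in cdc28-4 by limma's F test, with 84.5% of all genes called. INO1 had the highest F of the members at 54.3 (adjusted p = 3.88e-11) and CHO1 the lowest at 4.20 (adjusted p = 0.00312). OLE1 spanned 2.48 on the log2 scale over the 33 cdc28-4 arrays, rank 247 of 5449 by range, and INO1 spanned 1.93, rank 538. ITR1 spanned 0.35, rank 5304, where the median gene spanned 0.87. When the 10 and 30 min arrays were left out, 9 of the members were still past the threshold among 2825 genes, and CHO1 was not (adjusted p = 0.355). Both CHO1 results include the 170 min pair, where the courses differed by 0.83 in CHO1, so they do not show that CHO1 stayed flat after 30 min.

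The 4 fatty acid genes shared a course with an early trough. OLE1 was highest at 10 min, at 13.74 in course 1 and 13.77 in course 2 of cdc28-4. It stood at 12.09 and 12.30 at 30 min, at 11.47 and 11.64 at 50 min, at 11.45 and 11.29 at 70 min, at 11.78 and 11.79 at 90 min, and at 12.85 and 12.97 at 150 min. The wild-type course had the same shape, with 13.58 at 15 min, 12.30 at 30 min, its lowest value of 11.66 at 60 min, 12.22 at 90 min and 13.05 at 180 min. None of the 3 courses came back to the level of the earliest sample within its sampled time.

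FAS2, the subunit of fatty acid synthase that carries the acyl carrier, stood at 13.82 and 13.68 at 10 min in cdc28-4, at 12.49 and 12.31 at 50 min, its lowest, and at 13.65 and 13.47 at 290 min. In wild type it stood at 12.81 at 15 min, at 11.40 at 45 min, its lowest, and at 12.77 at 195 min. ACC1 followed a shallower course, with 13.88 and 13.82 at 10 min, 13.20 and 13.03 at 50 min, its lowest, and 13.89 and 13.68 at 290 min in cdc28-4. Its wild-type values were 13.39 at 15 min, 12.77 at 45 min and 13.48 at 195 min. FAS1, the other synthase subunit, turned earliest of the 4. Its lowest cdc28-4 values, 13.08 and 12.98, and its lowest wild-type value, 12.64, all came at 30 min, and at 50 min it was already at 13.50 and 13.29 in cdc28-4.

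**Figure D1:**
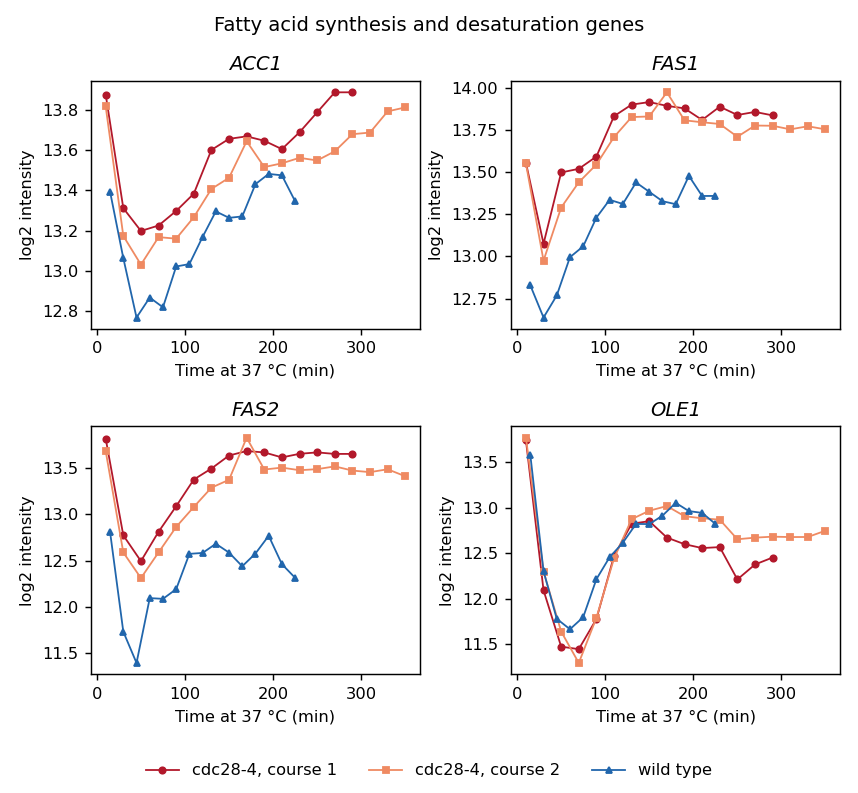
Log2 intensity of ACC1, FAS1, FAS2 and OLE1 (y axes, each panel on its own scale) against minutes at 37 °C (x axes); each point is 1 array of cdc28-4 course 1, cdc28-4 course 2 or wild type. All 4 genes dip within the first 70 min in every course, FAS1 at 30 min and OLE1 last, with its lowest cdc28-4 value of 11.29 at 70 min.

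The subunit genes FAS1 and FAS2 therefore did not move in parallel. Within an array, the log2 difference FAS1 minus FAS2 was -0.26 and -0.13 at 10 min in cdc28-4, 0.30 and 0.39 at 30 min, 1.00 and 0.98 at 50 min, 0.51 and 0.68 at 90 min and 0.19 and 0.30 at 290 min. In wild type it was 0.02 at 15 min, 0.90 at 30 min, 1.37 at 45 min and 1.04 at both 90 and 225 min. The absolute size of this difference carries no meaning across probe sets. Its change does, and the maximum came at 50 min in both cdc28-4 courses and at 45 min in wild type.

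INO1, CHO1 and OPI3 peaked at 30 min, the time of the FAS1 trough. INO1, whose product makes inositol 3-phosphate from glucose 6-phosphate, had its maximum at 30 min in all 3 courses, at 10.43 and 10.27 in cdc28-4 and 10.32 in wild type. It stood at 9.66 and 9.73 at 50 min, at 9.07 and 9.11 at 90 min and at 8.83 and 8.52 at 290 min in cdc28-4. Wild type was at 9.50 at 45 min, 9.57 at 60 min, 9.14 at 90 min, 9.57 at 105 min and 8.94 at 225 min. CHO1, which encodes phosphatidylserine synthase, was also highest at 30 min in all courses, at 13.11 and 13.18 in cdc28-4 and 13.27 in wild type. OPI3, which encodes the phospholipid methyltransferase that completes phosphatidylcholine, peaked at 30 min as well, at 13.64 and 13.66 in cdc28-4 and 13.45 in wild type.

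CHO2, which encodes the methyltransferase that starts the conversion of phosphatidylethanolamine, had its lowest values in the earliest samples and did not return to them. It was at 12.53 and 12.63 at 10 min, 13.36 and 13.45 at 30 min, 13.29 and 13.36 at 90 min and 13.65 and 13.60 at 290 min in cdc28-4. Wild type had 12.96 at 15 min, 13.46 at 30 min and 13.50 at 90 min. OPI1, the repressor gene, was likewise lowest at 10 min in cdc28-4, at 9.43 and 9.40, and stood at 10.29 and 10.21 at 30 min and at 9.76 and 9.87 at 290 min. Its wild-type values were 9.94 at 15 min, 10.31 at 30 min and 9.85 at 75 min. ITR1, the inositol transporter gene, moved least. It lay between 12.63 and 12.99 on the cdc28-4 arrays and between 12.24 and 12.55 on the wild-type arrays.

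**Figure D2:**
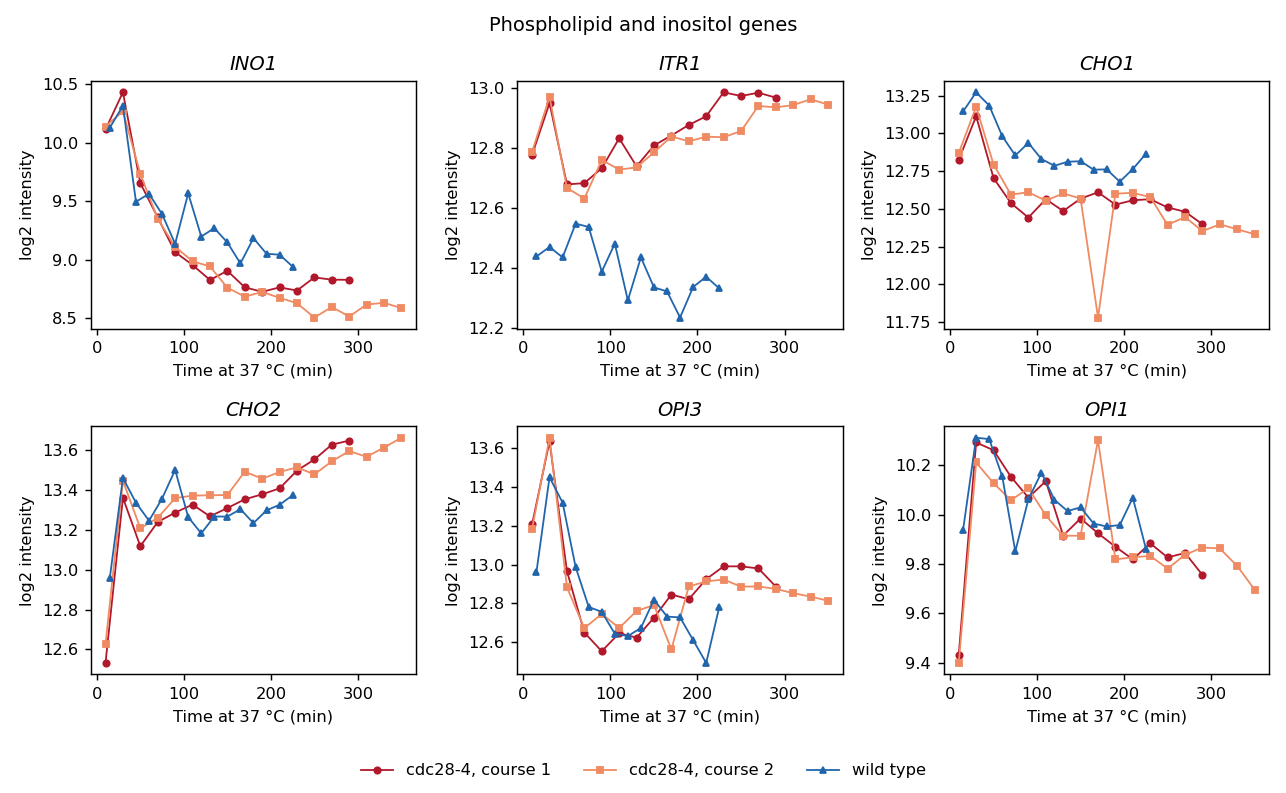
Log2 intensity of INO1, ITR1, CHO1, CHO2, OPI3 and OPI1 (y axes, each panel on its own scale) against minutes at 37 °C (x axes); each point is 1 array of cdc28-4 course 1, cdc28-4 course 2 or wild type. INO1, CHO1 and OPI3 peak at 30 min in every course, and the course 2 array at 170 min departs from its neighbours in CHO1 (11.78) and OPI1 (10.30).

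In the step between 10 and 30 min in cdc28-4, the 4 fatty acid genes all fell, and of the 6 phospholipid genes 4 rose (OPI1, CHO2, OPI3 and ITR1). Past the threshold of an adjusted p of 0.05 were 8 of the 10 members, in a comparison that called 55.9% of all genes, 31.4% as higher and 24.5% as lower at 30 min. The members' median difference was 0.20, against 0.045 over all genes. OLE1 fell to 12.09 and 12.30 at 30 min, against 13.74 and 13.77 at 10 min, a log2 difference of -1.56 (SE 0.16) or 2.95-fold (adjusted p = 7.46e-08, limma). FAS2 was at 12.77 and 12.59 at 30 min, against 13.82 and 13.68 at 10 min, a difference of -1.07 (SE 0.13, adjusted p = 8.68e-07). The falls of ACC1 and FAS1 were smaller, -0.61 (SE 0.11, adjusted p = 9.47e-05) and -0.53 (SE 0.073, adjusted p = 4.55e-06). The pairs of arrays did not overlap in any of the 4 genes. Here and below such separation of arrays is a description, and its share over all genes is not given. The summed alpha-cell genes were at 10.85 to 10.92 at 30 min, against 11.11 to 11.68 at 10 min, with 1 of 4 higher and 2 lower, and the summed a-cell genes were at 15.20 to 15.41 at 30 min, against 15.37 to 15.52 at 10 min. The part of these in the members' changes was not tested.

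Among the phospholipid genes OPI1 rose by 0.84 (SE 0.086, adjusted p = 1.18e-07), with 10.29 and 10.21 at 30 min against 9.43 and 9.40 at 10 min. CHO2 rose by 0.83 (SE 0.064, adjusted p = 2.36e-09), with 13.36 and 13.45 at 30 min against 12.53 and 12.63 at 10 min. OPI3 rose by 0.45 (SE 0.079, adjusted p = 8.18e-05). ITR1 differed by 0.18 (SE 0.057, adjusted p = 0.0124), a call lost when the 10 min array of course 1 (adjusted p = 0.0544) or the 30 min array of course 2 (adjusted p = 0.0542) was dropped. INO1 differed by 0.22 (SE 0.11, adjusted p = 0.0805), which passed with the course as a block (adjusted p = 0.0412). CHO1 differed by 0.30 (SE 0.15, adjusted p = 0.0950), and its adjusted p was 0.000271 when the course 2 array at 170 min, which enters the estimate of its spread, was left out.

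Between 30 and 90 min INO1, OPI3, CHO1, ITR1 and OLE1 fell in cdc28-4 and FAS1 rose. These are 6 of the 10 members, in a comparison that called 60.0% of all genes, 31.4% as higher and 28.6% as lower at 90 min. It shares the 30 min arrays with the step before it. The members' median difference was -0.19, against 0.014 over all genes. INO1 was at 9.07 and 9.11 at 90 min, against 10.43 and 10.27 at 30 min, a difference of -1.26 (SE 0.11) or 2.40-fold (adjusted p = 3.53e-09). OPI3 was at 12.55 and 12.74 at 90 min, against 13.64 and 13.66 at 30 min, a difference of -0.998 (SE 0.079, adjusted p = 1.68e-09). CHO1 was at 12.44 and 12.61 at 90 min, against 13.11 and 13.18 at 30 min, a difference of -0.62 (SE 0.15, adjusted p = 0.00125). In all 3 genes the 90 min arrays lay below both 30 min arrays.

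FAS1 was at 13.59 and 13.54 at 90 min, against 13.08 and 12.98 at 30 min, a difference of 0.54 (SE 0.073, adjusted p = 2.15e-06). FAS2 differed by 0.29 (SE 0.13, adjusted p = 0.0545), and with the course as a block its adjusted p was 0.00107. The FAS2 difference also passed under quantile normalization (adjusted p = 0.0168) and with a trended, robust variance (adjusted p = 0.0494). OLE1, still near its trough, was at 11.78 and 11.79 at 90 min, against 12.09 and 12.30 at 30 min. Its difference of -0.41 (SE 0.16, adjusted p = 0.0280) lost the call under quantile normalization (adjusted p = 0.0590) and in 3 of the fits that left out 1 array, in which the 30 min array of course 2 (adjusted p = 0.185) or the 90 min array of course 1 or 2 (adjusted p = 0.0912 and 0.0814) was dropped. ITR1 fell by 0.21 (SE 0.057, adjusted p = 0.00303). For OPI1 the difference was -0.16 (SE 0.086, adjusted p = 0.110), and it passed once the 170 min array of course 2 was dropped (adjusted p = 0.0193). OPI1 also passed under other scalings of the arrays. Its adjusted p was 0.0216 with median centring, 0.0397 with quantile normalization and 0.0374 with centring on the fission yeast probe sets. ACC1 and CHO2 differed by -0.01 (95% confidence interval -0.24 to 0.21) and -0.08 (-0.21 to 0.05). In the same step all 15 genes of a list of stress genes fell, with a median difference of -1.85, and all 15 of a list of ribosome biogenesis genes rose, with a median of 1.61. Their part in the members' changes was not tested.

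The late comparison in cdc28-4 set the 4 arrays of 270 and 290 min against the 4 arrays of 90 and 110 min. Here 7 members rose (ACC1, FAS2, OLE1, CHO2, OPI3, ITR1 and FAS1) and 2 fell (INO1 and OPI1), where 56.2% of all genes were called, 27.2% as higher and 29.1% as lower. The members' median difference was 0.22, against -0.017 over all genes. ACC1 was at 13.89, 13.89, 13.59 and 13.68 late, against 13.30, 13.38, 13.16 and 13.27 early, and rose by 0.49 (SE 0.077, adjusted p = 2.56e-05). FAS2 was at 13.65, 13.65, 13.52 and 13.47 late, against 13.09, 13.37, 12.86 and 13.08 early, and rose by 0.47 (SE 0.091, adjusted p = 0.000204). Neither gene's late arrays overlapped its early ones.

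OLE1 rose by 0.43 (SE 0.11, adjusted p = 0.00279), with overlapping windows, 12.38, 12.45, 12.67 and 12.68 late against 11.78, 12.47, 11.79 and 12.44 early. Over the wider windows of 250 to 290 against 90 to 130 min the OLE1 difference was 0.15 (adjusted p = 0.170), with the 130 min arrays at 12.83 and 12.88. FAS1 rose by 0.14 (SE 0.051, adjusted p = 0.0243), a call that was lost over the same wider windows (0.06, adjusted p = 0.188) and without any 1 of 4 arrays, the course 2 arrays at 90 and 110 min (adjusted p = 0.0730 and 0.112) and the course 1 arrays at 270 and 290 min (adjusted p = 0.0910 and 0.0826).

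Of the phospholipid genes, CHO2 rose by 0.27 (SE 0.045, adjusted p = 5.38e-05), OPI3 by 0.25 (SE 0.056, adjusted p = 0.000778) and ITR1 by 0.19 (SE 0.040, adjusted p = 0.000424), each with late arrays above all early ones. INO1 was at 8.83, 8.83, 8.60 and 8.52 late, against 9.07, 8.96, 9.11 and 8.99 early, and fell by 0.34 (SE 0.075, adjusted p = 0.000793). OPI1 was at 9.84, 9.76, 9.84 and 9.87 late, against 10.07, 10.14, 10.11 and 10.00 early, and fell by 0.25 (SE 0.061, adjusted p = 0.00172). CHO1 differed by -0.12 (SE 0.10, adjusted p = 0.330), which passed once the 170 min array of course 2 was dropped (adjusted p = 0.0160).

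Other measures moved between the same windows. The ACT1 3′ to 5′ log2 ratio was 0.40, 0.43, 0.30 and 0.33 on the late arrays, against 0.33, 0.27, 0.22 and 0.21 on the early arrays. The summed intensity of the 4 alpha-cell genes MF(ALPHA)1, MF(ALPHA)2, STE3 and SAG1 was 11.99 to 12.21 late against 11.15 to 11.55 early on the log2 scale, and 3 of the 4 rose. The summed 5 a-cell genes were at 15.00 to 15.12 late against 15.54 to 15.57 early, and 4 of the 5 fell. All 15 ribosome biogenesis genes fell (median -0.53), while of the 15 stress genes 9 rose and 1 fell (median 0.28). Of 17 measured genes of a cell cycle list 14 rose and 0 fell (median 0.49), and CDC28 mRNA rose by 0.53. The part of these in the members' changes was not tested.

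**Figure D3:**
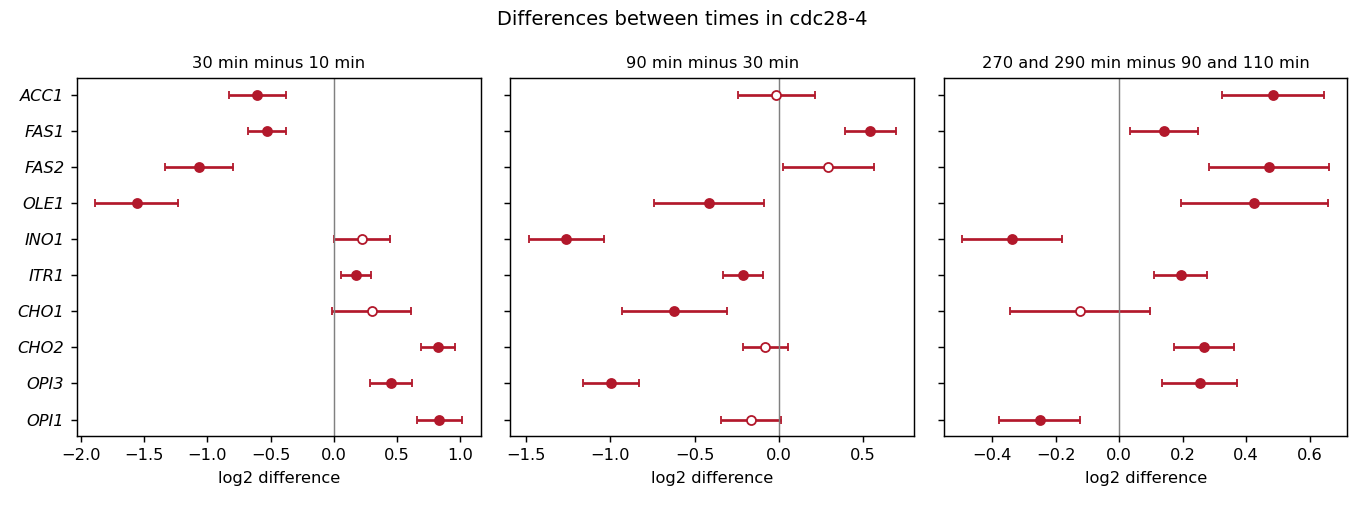
Log2 differences between times in cdc28-4 for the 10 genes (x axes; 30 minus 10 min, 90 minus 30 min, and 270 and 290 minus 90 and 110 min); points are limma estimates from 2, 2 and 4 arrays a side, bars are 95% confidence intervals and filled points have an adjusted p under 0.05. The fatty acid genes lie left of 0 in the earliest step, with OLE1 at -1.56, and right of 0 in the late comparison.

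Whether these courses differed between the strains was asked at the 4 times sampled in both, 30, 90, 150 and 210 min, through the interaction of strain and time. The strains differ at BAR1 and in labelling kit as well as at CDC28, and these cannot be told apart here. Each wild-type time has 1 array, assumed here to vary like the cdc28-4 pairs. OPI3 alone of the 10 members passed (F = 6.48, adjusted p = 0.0151), in a test that called 33.8% of all genes. The cdc28-4 mean of OPI3 minus wild type was 0.19, -0.11, -0.06 and 0.43 at the 4 times in order. The last value uses the wild-type array at 210 min, on which the OPI3 result from 90 to 210 min below also rests. The F test was not repeated without that array. CHO2 had an adjusted p of 0.122, and with the course as a block it was 0.0464. For the other 8 genes the adjusted p lay between 0.252 (INO1) and 0.841 (ACC1).

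The change between 30 and 90 min did not differ past the threshold between cdc28-4 and wild type for any member. In that comparison 19.3% of all genes were called by limma, 8.48% as higher and 10.8% as lower. An unadjusted p under 0.05 was reached by 1 member, OPI3, and by 1686 of all 5449 genes. INO1 changed by -1.26 in cdc28-4 and -1.18 in wild type, a difference of -0.08 (95% confidence interval -0.47 to 0.30). FAS1 changed by 0.54 in cdc28-4 and 0.59 in wild type, a difference of -0.05 (-0.31 to 0.21). FAS2 changed by 0.29 in cdc28-4 and by 0.46 in wild type, a difference of -0.16 (-0.63 to 0.30). ACC1 changed by -0.01 in cdc28-4 and by -0.04 in wild type, a difference of 0.03 (-0.37 to 0.42). OLE1 changed by -0.41 in cdc28-4 and -0.09 in wild type, and its interval was the widest of the 10, at -0.89 to 0.24. These intervals leave room for sizeable differences in either direction.

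OPI3 changed by -0.998 in cdc28-4 and -0.70 in wild type, a difference of -0.30 (-0.59 to -0.01, adjusted p = 0.140). CHO1 changed by -0.62 in cdc28-4 and -0.34 in wild type, a difference of -0.28 (-0.82 to 0.25). Without the course 2 array at 170 min both differences passed, at an adjusted p of 0.0484 for OPI3 and 0.0492 for CHO1. The differences of CHO2, OPI1 and ITR1 were -0.12, 0.09 and -0.13. Here 1 of the 4 alpha-cell genes and 2 of the 5 a-cell genes were called, all higher, and 1 of the 15 ribosome biogenesis genes. Of the 15 stress genes 3 were called higher and 2 lower, and of the 17 cell cycle genes 14 were called lower. Their part in the members' differences was not tested.

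Between 90 and 210 min the strains differed in OPI3, 1 member called where 24.7% of all genes were, 11.2% as higher and 13.5% as lower. OPI3 was at 12.92 and 12.91 at 210 min, against 12.55 and 12.74 at 90 min, in cdc28-4. In wild type it was at 12.49 at 210 min, against 12.76 at 90 min. The changes of 0.27 in cdc28-4 and -0.26 in wild type differed by 0.53 (SE 0.14, 95% confidence interval 0.25 to 0.82, adjusted p = 0.00889). This rests on the wild-type array at 210 min, the lowest of its course, since the neighbouring wild-type arrays were at 12.61 at 195 min and 12.78 at 225 min. With the mean of those arrays in its place the difference was 0.33 (adjusted p = 0.0649), and over 90 to 150 min it was 0.05 (adjusted p = 0.951).

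CHO2, the gene of the preceding methylation step, changed by 0.13 in cdc28-4 and -0.17 in wild type over the same interval, a difference of 0.30 (0.07 to 0.53, adjusted p = 0.0538). With the course as a block its adjusted p was 0.0199, without the course 2 array at 170 min it was 0.0268, and it was 0.0442 with the mean of the wild-type arrays at 195 and 225 min. OPI1 changed by -0.26 in cdc28-4 and 0.01 in wild type, a difference of -0.27 (-0.58 to 0.04, adjusted p = 0.204), which passed once the 170 min array of course 2 was dropped (adjusted p = 0.0469). OLE1 changed by 0.94 in cdc28-4 and 0.73 in wild type, a difference of 0.21 (-0.36 to 0.77). ITR1 changed by 0.13 in cdc28-4 and -0.02 in wild type, a difference of 0.14 (-0.06 to 0.35). For ACC1, FAS1, FAS2, INO1 and CHO1 the differences lay between -0.28 and 0.31 and every interval held 0. In the same comparison 3 of the 4 alpha-cell genes were called higher (list median 0.99), 3 of the 5 a-cell genes lower (-0.66) and 11 of the 15 ribosome biogenesis genes lower (-0.74). Of the 17 cell cycle genes 9 were called higher and 3 lower, and of the 15 stress genes 3 were called lower. Their part in the OPI3 difference was not tested.

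**Figure D4:**
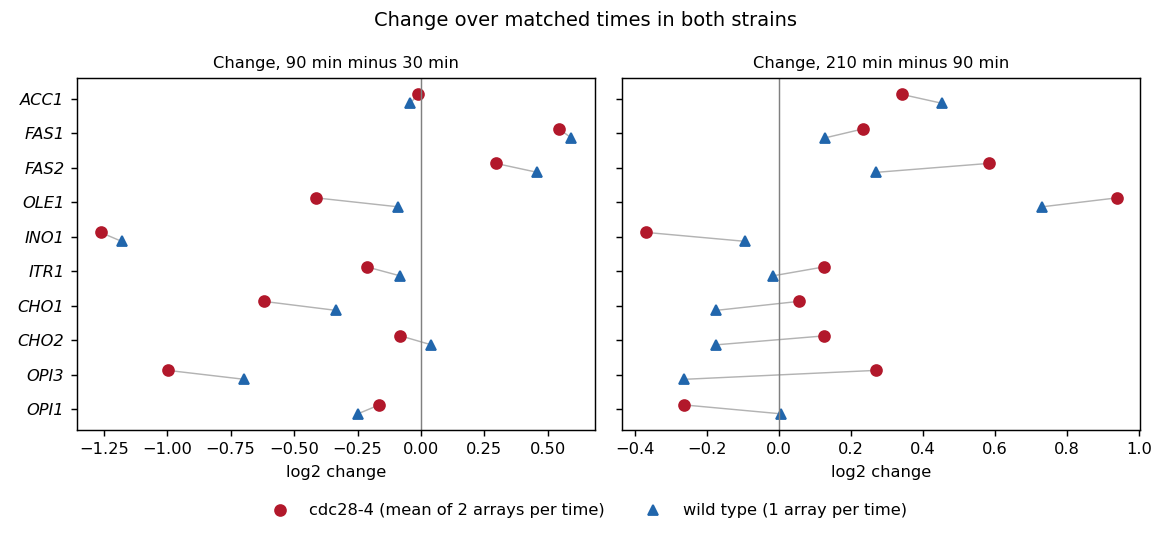
Log2 change of the 10 genes between 30 and 90 min and between 90 and 210 min (x axes), in cdc28-4 (circles, mean of 2 arrays a time) and in wild type (triangles, 1 array a time), joined by a line for each gene. The strains lie close together for INO1 and FAS1 in the earlier interval, and in the later one OPI3 is at 0.27 in cdc28-4 and -0.26 in wild type.

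The levels of the strains over the 4 matched times are given as a description only, because strain and labelling kit cannot be told apart. FAS2 was at 13.18 in cdc28-4 and 12.24 in wild type, a difference of 0.94, and 7.54% of all genes had a larger one. ITR1 was 0.45 and FAS1 0.41 higher in cdc28-4. The other 7 genes lay between -0.24 (CHO1) and 0.19 (ACC1), around a median of -0.03 over all genes. FAS2 was higher in cdc28-4 at each of the 4 times, by 0.78 to 1.10.

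Pairs of the 10 genes were compared by the correlation of their profiles. After each strain was centred on its own mean, the 6 pairs of fatty acid genes all correlated positively over the 48 arrays, with r from 0.42 (FAS1 and OLE1) to 0.86 (FAS2 and ACC1) and a median of 0.76. They were also positive in each of the 3 courses alone. Of the 15 pairs of phospholipid genes 10 were positive, with the highest values for INO1 and CHO1 (0.79) and for CHO1 and OPI3 (0.78) and the lowest for INO1 and CHO2 (-0.61). In course 1, course 2 and wild type alone 9, 7 and 14 of these 15 pairs were positive. Of the 24 pairs with 1 gene of each kind 5 were positive, and FAS1 ran against INO1 (-0.83), CHO1 (-0.78) and OPI3 (-0.73). For these mixed pairs the counts were 10, 8 and 1 of 24 in course 1, course 2 and wild type. OPI1 correlated at -0.64 with OLE1, -0.67 with ACC1 and -0.63 with FAS2. ITR1 and ACC1 correlated at 0.61 and 0.63 in courses 1 and 2 of cdc28-4 and at -0.69 in wild type. The arrays share the shift and the normalization, the times of a course follow one another, and these r values are descriptions without a test. Over the cdc28-4 arrays from 50 min on, 12 of the 24 mixed pairs were positive, up to 0.89 for ACC1 and ITR1, and r between FAS1 and OPI3 was 0.08. In the same arrays all 6 fatty acid pairs and 6 of the 15 phospholipid pairs were positive.

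**Figure D5:**
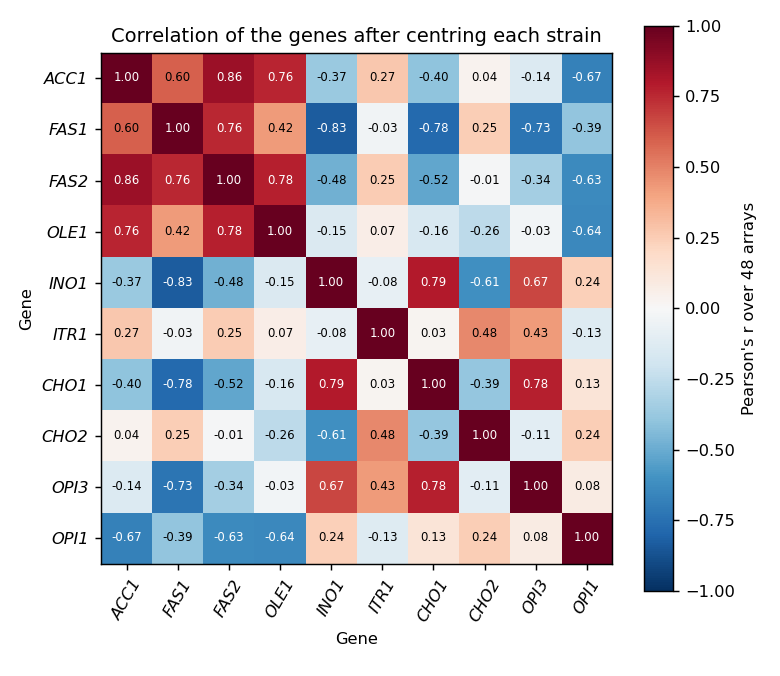
Pearson's r between the 10 genes (both axes) over 48 arrays after each strain was centred on its own mean; colour runs from -1 (blue) to 1 (red). The block of ACC1, FAS1, FAS2 and OLE1 is positive throughout, at 0.42 to 0.86, and FAS1 is at -0.83 with INO1.

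By the same measure over the 48 arrays, the genes most like each member in profile were looked up among all genes. OLE1 was closest to IZH4 (r = 0.89), which encodes a membrane protein of zinc homeostasis, and to ANB1 (0.84), a gene of low oxygen growth. FAS1 was closest to FAA4 (0.94), which encodes an acyl-CoA synthetase. FAS2 was closest to ECM22 (0.87), a sterol regulator gene, and to ACC1 (0.86). The closest genes to ACC1 were ECM22 (0.89) and MGA2 (0.89), the gene of a membrane-bound activator of OLE1. INO1 was closest to GSH1 (0.95), a glutathione synthesis gene, and LSP1 (0.95), an eisosome gene. CHO1 was closest to FMN1 and YVC1 (both 0.88), CHO2 to PPZ1 (0.95), OPI1 to RPB2 (0.89), OPI3 to POM33 (0.90) and ITR1 to YNR065C (0.84).

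Lists of genes around the members are described by their counts at the same threshold, to be read against the shares of all genes called: 55.9% at 30 against 10 min, 60.0% at 90 against 30 min and 56.2% in the late comparison. Of 16 genes of fatty acid supply, elongation and activation, 3 rose and 4 fell at 30 against 10 min, with a median of 0.04. FAA4 was at 10.35 at 30 min, against 12.26 at 10 min, the largest fall of the list (-1.92, adjusted p = 8.83e-11), and it rose by 1.73 at 90 against 30 min (adjusted p = 1.93e-10). ACS1, an acetyl-CoA synthetase gene, moved the other way, by 0.80 at 30 against 10 min and by -0.85 at 90 against 30 min. ELO3, a fatty acid elongase gene, rose by 0.97 at 90 against 30 min, when 5 of the list rose and 5 fell. In the late comparison 5 rose and 4 fell, among them FAA2 (0.42) and FAA3 (-0.47).

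Of 13 genes of the phosphatidic acid and CDP-diacylglycerol branch, 2 rose and 8 fell at 30 against 10 min, with a median of -0.31. The cardiolipin synthase gene CRD1 fell by 0.64 and the acyltransferase gene ALE1 by 0.57, while CDS1, the gene of CDP-diacylglycerol synthase, rose by 0.42. At 90 against 30 min 4 rose and 5 fell. GPT2, which encodes a glycerol 3-phosphate acyltransferase, fell by 1.08 (adjusted p = 1.54e-09) and then rose by 0.46 in the late comparison, where 7 of the list rose and 3 fell. Of 11 genes of the Kennedy pathway and of inositol and choline uptake, 6 rose and 1 fell at 30 against 10 min, 4 rose and 3 fell at 90 against 30 min, and 0 rose and 4 fell late. INM1, an inositol monophosphatase gene, rose by 0.68 in both early steps and fell by 0.40 late.

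Of 15 regulator genes, 1 rose and 4 fell at 30 against 10 min. MGA2 fell by 0.67 (adjusted p = 3.02e-06), PAH1, the phosphatidate phosphatase gene, also fell by 0.67 (adjusted p = 5.61e-05), and MGA2 rose by 0.57 late (adjusted p = 3.58e-07). At 90 against 30 min 1 rose and 4 fell, and late 3 rose and 6 fell. Of 9 genes of neutral lipid storage and breakdown, 1 rose and 6 fell at 30 against 10 min, with YEH1, a steryl ester hydrolase gene, up by 1.32. At 90 against 30 min 1 rose and 5 fell, and late 4 rose and 2 fell, with the lipase gene TGL5 up by 1.57 (adjusted p = 1.21e-12).

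Of 11 peroxisomal beta-oxidation genes, 4 rose and 4 fell at 30 against 10 min, and 0 rose and 9 fell at 90 against 30 min. POT1, the thiolase gene, and CTA1, the peroxisomal catalase gene, were at 8.13 and 7.96 at 90 min, under background on both arrays, against 10.29 and 10.12 at 30 min. They were at least 3.59-fold and 3.18-fold lower, computed against background. Late, 5 rose and 0 fell. POX1, the acyl-CoA oxidase gene, was at 8.97 late, against 7.70 early, where it was under background on all 4 arrays, and was at least 1.54-fold higher late. Of 13 sphingolipid genes, 3 rose and 6 fell, then 5 rose and 0 fell, and late 7 rose and 2 fell. CSH1, which encodes a subunit of a mannosyltransferase, fell by 1.35 at 30 against 10 min and rose by 1.23 late.

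The difference between strains in the change from 30 to 90 min was past the threshold for 6 of the 11 beta-oxidation genes, 3 of 13 in the phosphatidic acid branch, 2 of 13 sphingolipid genes, 1 of 16 in fatty acid supply, 1 of 9 in neutral lipids, 0 of 11 in the Kennedy list and 0 of 15 regulators, where 19.3% of all genes were called. From 90 to 210 min, where 24.7% of all genes were called, the counts were 6 of 13 for sphingolipid genes, 4 of 9 for neutral lipids, 3 of 11 each for beta-oxidation and the Kennedy list, 3 of 16 for fatty acid supply, 2 of 15 for regulators and 1 of 13 in the phosphatidic acid branch. TGL5 changed by 0.93 in cdc28-4 and -0.39 in wild type over this interval (difference 1.32, adjusted p = 2.86e-05). SUR2, the sphingoid hydroxylase gene, changed by 0.72 in cdc28-4 and -0.45 in wild type (difference 1.18, adjusted p = 0.000161). INO4, the gene of an activator of the phospholipid genes, changed by -0.19 in cdc28-4 and 0.14 in wild type (difference -0.32, adjusted p = 0.0148).

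Periodicity was tested with a cosine and a sine over a quadratic trend, at a period shared by all genes. The period was the one, tried every 2 min between 50 and 160 min, that gave a reference list of cell cycle genes, 17 of them measured, the highest mean share of detrended variance on the same arrays. In wild type it was 86 min, and limma called 0 of the 10 members, where 0.0551% of all genes were called. At an unadjusted p under 0.05 were 0 members and 547 of all 5449 genes. The lowest adjusted p of a member was 0.527, for OPI1. The 17 reference genes also had 0 past the threshold, and the 15 of them with an unadjusted p under 0.05 are no independent check, since the period was chosen on them. In cdc28-4 the best period was 160 min, the upper edge of the grid, which makes it no cycle length. There 0 members were called, where 0.734% of all genes were. At an unadjusted p under 0.05 were 1627 of all 5449 genes, among them 4 members. These were OLE1 (adjusted p = 0.0619), ACC1 (0.0699), FAS2 (0.0921) and FAS1 (0.124). With arrays from 45 min on, the same 4 genes passed at adjusted p of 0.00662, 0.0102, 0.0260 and 0.0115, as did 1021 genes in all.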

How the data were processed

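The deposited values are linear intensities, 1 for each of 10928 probe sets on each of 48 arrays, which the authors made with the R package affy, per the submitters' processing notes. The sources used here give neither its version nor the summary and normalization chosen. Log2 was taken with no added constant. Of the probe sets, 5498 had 1 yeast gene in the platform annotation, 1 had several and 3470 had none, while 1746 belonged to fission yeast and 213 to controls. The 47 genes with several were read from their brightest probe set by mean, which gave 5449 genes. No genome build is named for the probe sets, so no positions are given. Arrays hold no counts, so the number of arrays limits the precision.

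R 4.3.3 and limma 3.58.1 were used for all tests, with Benjamini-Hochberg adjustment over 5449 genes, a threshold of 0.05 and two-sided tests; figures were drawn with matplotlib 3.10.9 in Python 3.11.15. A fit of all 48 arrays had 1 mean per strain and time (33 in all). Its 15 residual degrees of freedom come from the 15 times with 2 cdc28-4 arrays, and the prior added 4.00. The sources do not say whether courses came from separate cultures, so p-values measure the spread between the courses. On simulated data with 5449 genes, 86% of log2 changes of 0.5 were recovered at 30 against 10 min and 39% in the strain difference from 30 to 90 min. The simulation changed only a small part of the genes and drew noise independently for each array. Its rates need not hold for the real arrays, where a larger share of genes was called and same-course deviations were correlated.

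Replicate numbers are course numbers, so they pair the arrays across times. Deviations of same-course arrays from their group means correlated at a median of 0.47 over 15 times (lowest 0.0051, highest 0.90), and the course as a block is given where it changes a call. Members and lists were chosen with earlier results of these data known. All members are named. In each list the 2 members past the threshold that rose most and the 2 that fell most were eligible, and the 3 genes of highest r for likeness. The alternatives were the scaling, a background filter, probe set averaging, the variance model, the block, single arrays left out, other times, trends and periods. A further 3 were chosen after seeing the data: leaving out the course 2 array at 170 min, and 150 min or the mean of wild-type 195 and 225 min in place of 210 min.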

Additional observations from a re-analysis of the deposited data

Results flagged for a closer look

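OPI3 moved in opposite directions in the strains between 90 and 210 min. The change was 0.27 in cdc28-4 (2 arrays a time) and -0.26 in wild type (1 array a time), and the difference of 0.53 (SE 0.14) passed limma's test of the difference itself (adjusted p = 0.00889). Both cdc28-4 courses had a higher value at 210 min than at 90 min, 12.92 against 12.55 in course 1 and 12.91 against 12.74 in course 2. In wild type only the array at 210 min, at 12.49, and the one at 195 min, at 12.61, were below all arrays from 90 to 180 min, where the lowest was 12.63, while the array at 225 min was at 12.78. With the mean of the wild-type arrays at 195 and 225 min in place of 210 min the difference was 0.33 (adjusted p = 0.0649), and with 150 in place of 210 min it was 0.05 (adjusted p = 0.951). A cause was not tested.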

How the results depend on the processing

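No member reversed its direction where it was called. The 30 against 10, 90 against 30 and late comparisons of cdc28-4 called 7 to 9, 5 to 7 and 7 to 10 members under all alternatives run, against 8, 6 and 9 as reported. Without the 10 and 30 min arrays the time effect called 2825 genes, against 4602. With the course as a block the strain by time test called 2 members, against 1 (2740 genes, against 1841), and the strain difference from 90 to 210 min 2, against 1 (1936 genes, against 1345). That strain difference also called 2 with arrays centred on their medians and with a trended, robust variance, 3 without the course 2 array at 170 min, and 0 members and 134 genes, against 1345, with 150 min in place of 210 min. From 30 to 90 min the strain difference called 2 members, against 0, without the course 2 array at 170 min. Of the genes called there, 59.8% were higher in cdc28-4 after each array was centred on its fission yeast signal, against 43.9% as reported. From 90 to 210 min this share was 22.0% with that centring, which shifts the median of all genes by -0.14, and 57.5% with median centring, against 45.4% as reported. OPI3 kept its call under both (0.40 and 0.59). Periodic genes in wild type, 3 as reported, numbered 0 with a linear trend and under quantile normalization, 24 from 45 min on and 6 with a period 10 min longer. In cdc28-4 they numbered 40 as reported, 0 with a linear trend, 1021 from 45 min on, 3 with a period 10 min shorter, 793 with one 10 min longer, 23 with median centring, 8 without both 170 min arrays, 76 without the course 2 array at 170 min, and 0 to 1 without a course. Members periodic in cdc28-4 numbered 4 from 45 min on and 4 with the longer period, against 0. The cause of these shifts was not tested, beyond the fewer arrays that some of the fits hold. INO1 lies near background late, which limits its late differences.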
